A study of Mus musculus with 28 samples.

Results

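Annexin genes were described in the mouse cerebral cortex of conditional knockout (cKO) mice, in which a gene is deleted in astrocytes, and of control (Ctrl) littermates. The 8 genes Anxa1, Anxa2, Anxa3, Anxa4, Anxa5, Anxa6, Anxa7 and Anxa11 were taken by name as members of the annexin family and matched by their GRCm38 symbols to Ensembl identifiers, and all 8 were found among the 53342 gene rows of each of the 3 count tables. The rule uses gene names and no values, but the 8 names were chosen with earlier results of these data known. The other 4 annexin genes looked up, Anxa8, Anxa9, Anxa10 and Anxa13, are given at the end.

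Annexins are proteins that bind the acidic phospholipids of membranes, phosphatidylserine among them, when calcium is present. They take part in membrane repair, in vesicle traffic and in the linkage of membranes to the actin cytoskeleton, and Anxa1 also acts outside the cell on formyl peptide receptors. Several of them work together with small calcium-binding S100 proteins, the best known pair being Anxa2 with S100a10. In the brain they are studied in glia, in vessels and in the response to injury, and labelled Anxa5 is widely used to stain phosphatidylserine on dying cells.

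The cKO mice carried mGFAP-Cre, a Cre driver under a promoter active in astrocytes, and loxP alleles of the targeted gene on both chromosomes. The Ctrl mice were littermates of the same sex with loxP/loxP or loxP/+ alleles, on a C57BL/6J background like the cKO mice, and no driver is given for them in the bulk experiments. Bulk RNA-Seq was made at postnatal day 17 (P17) and day 24 (P24), with 4 cKO and 4 Ctrl mice at each age. TRAP-Seq, in which a tagged ribosomal protein (EGFP/Rpl10a) is switched on by mGFAP-Cre and ribosomes with their mRNA are pulled down through the tag, was made at P24 with 3 cKO and 3 Ctrl mice. Each TRAP mouse gave an Input library from the lysate supernatant after spinning and an IP library from the pulled-down ribosomes. The Ctrl mice of this experiment are thus taken to carry the driver as well. Together with the driver, loxP/loxP would be the cKO genotype and loxP/+ a heterozygous deletion, so the genotype of the TRAP Ctrl mice is not resolved. In bulk cortex the groups would also differ in the driver, while in TRAP-Seq both are taken to carry it. Each library came from 1 mouse.

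Total counts on genes lay between 8855488 and 14575306 in the 16 bulk libraries and between 18433087 and 27242445 in the 12 TRAP-Seq libraries. Levels are given as CPM, counts divided by the library total and scaled with TMM factors, a correction for library composition, within each experiment, and 3 counts, taken as the detection limit, came to at most 0.340 CPM in bulk and 0.167 CPM in TRAP-Seq. The limit covers counting error only. All 7 astrocyte markers examined were higher in Ctrl IP than in Ctrl Input, and all 7 microglial markers were lower. The pericyte and smooth muscle markers Acta2 (log2 fold change 2.47, edgeR), Tagln (1.14) and Pdgfrb were also higher in IP. Ependymal Foxj1 (1.84) and endothelial Slco1c1 (3.49) were higher, while the other ependymal, choroid plexus and endothelial markers were lower. The neuronal markers Syp, Thy1, Rbfox3 and Syt1 were lower. Neuronal Snap25 and the pericyte marker Rgs5 did not pass the test. The part of these other cells in the annexin IP values was not tested. The summed level of 6 olfactory bulb markers was 95.3 and 113 CPM in P24 bulk Ctrl replicates 1 and 4, against 9.07 to 20.2 CPM in the other 6 P24 bulk libraries.

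Between genes, levels were compared per kilobase of exon (CPM per kb), since a long transcript collects more reads. In bulk cortex the order of the group means began with Anxa6, followed by Anxa5, Anxa7 and Anxa11. In Ctrl mice at P24 the level per kb was 23.6 ± 0.689 for Anxa6 (mean ± SD, n = 4, as for the following genes), 13.1 ± 1.57 for Anxa5, 8.28 ± 0.449 for Anxa7 and 5.14 ± 0.664 for Anxa11. None of these 4 neighbours overlapped in their ranges. Anxa3 (1.73 ± 0.0866 per kb) and Anxa2 (1.53 ± 0.185 per kb) followed with ranges that overlapped, and Anxa4 (0.487 ± 0.0672 per kb) and Anxa1 (0.278 ± 0.0400 per kb) came last. At P17 the order was the same in Ctrl and in cKO mice, with overlaps between Anxa3 and Anxa2 and between Anxa4 and Anxa1. In cKO mice at P24 the ranges of Anxa6 (23.3 ± 0.609 per kb) and Anxa5 (22.5 ± 1.82 per kb) overlapped, and so did those of Anxa2 (2.57 ± 0.807 per kb) and Anxa3 (2.32 ± 0.496 per kb), whose means stood in the opposite order.

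The order was another one in the ribosome-bound mRNA. In Ctrl IP the highest level per kb was that of Anxa5, at 85.8 ± 3.81 (n = 3, as for the following genes), ahead of Anxa6 at 29.7 ± 0.734 and Anxa7 at 6.25 ± 0.801. Anxa1 (0.580 ± 0.118 per kb) and Anxa3 (0.483 ± 0.141 per kb) stood at the end and overlapped. Of the summed level per kb of the 8 genes, Anxa5 made up 66% ± 1.57 in Ctrl IP and 72.9% ± 3.22 in cKO IP, against 19.2% ± 1.91 in Ctrl Input and 29.6% ± 3.02 in cKO Input (SD, n = 3). Anxa6 made up 49.1% ± 3.19 of the sum in Ctrl Input and 22.9% ± 0.998 in Ctrl IP. In P24 bulk cortex the share of Anxa5 was 24.2% ± 2.61 in Ctrl and 33.5% ± 1.52 in cKO mice (SD, n = 4).

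**Figure D1:**
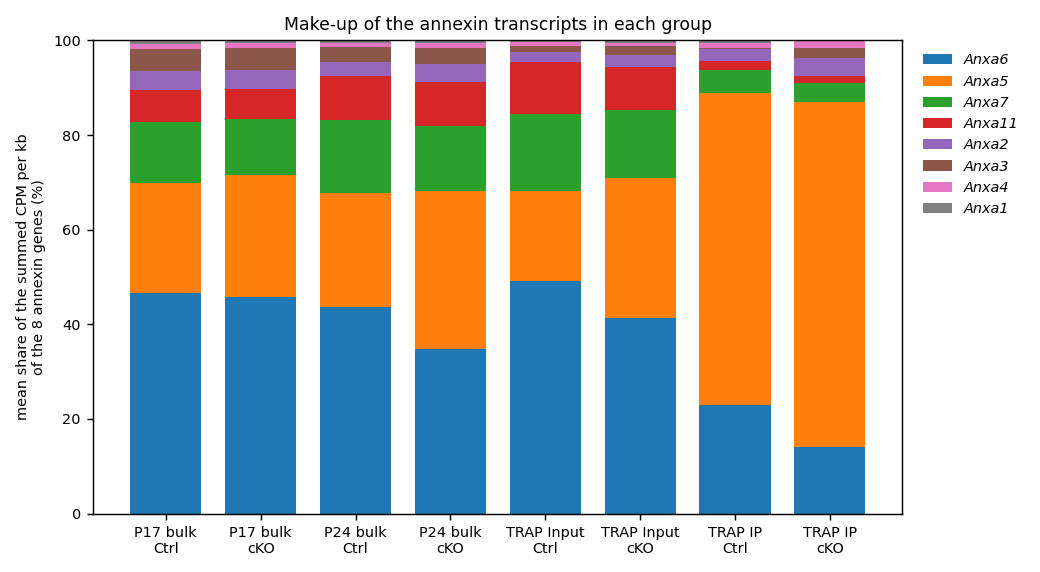
Mean share (%) of each annexin gene in the summed CPM per kb of the 8 genes, 1 stacked bar for each of the 8 groups. Anxa6 is the largest part in every bulk and Input bar, from 34.7% to 49.1%, and Anxa5 is the largest part in both IP bars, at 66% and 72.9%.

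The comparison of Ctrl IP with Ctrl Input libraries shows which annexin transcripts were more or less abundant on the tagged ribosomes than in the supernatant of the cortex lysate. With edgeR's quasi-likelihood test and Benjamini-Hochberg adjustment over 24385 genes, 4 of the 8 annexins were higher in IP and 3 were lower, where 35.3% of all genes tested were higher and 35.7% lower. A call in this comparison is thus common among all genes. All 7 called members showed no overlap between the fractions, where 37.1% of all genes tested showed none on the higher and 37.2% on the lower side.

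Anxa5, a small annexin that binds phosphatidylserine, stood at 26.5, 23.6 and 20.3 CPM in the Ctrl Input libraries and at 156, 157 and 145 CPM in the IP libraries of the same mice. It was 6.42-fold higher in IP (log2 fold change 2.68 ± 0.12 SE, adjusted p = 4.69e-09, edgeR). Anxa4, an annexin best known from epithelial cells, was 2.96-fold higher (log2 1.56 ± 0.18, adjusted p = 1.01e-05). Anxa2, the partner of S100a10, was 2.22-fold higher (log2 1.15 ± 0.20, adjusted p = 2.53e-04). Anxa1 was 1.89-fold higher (log2 0.92 ± 0.28, adjusted p = 0.0112), on 13 to 23 counts per Input library and 37 to 55 per IP library.

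Anxa11, which has a long disordered start and has been linked to the transport of RNA granules, was lower on the tagged ribosomes, at 10.2, 9.66 and 11.5 CPM against 32.0, 37.8 and 25.7 CPM in Input. The fold difference was 3.08 (log2 fold change -1.62 ± 0.15, adjusted p = 1.75e-06, edgeR). Anxa7, a further annexin with an extended start, was 1.77-fold lower (log2 -0.82 ± 0.12, adjusted p = 4.59e-05). Anxa3 was 1.83-fold lower (log2 -0.88 ± 0.29, adjusted p = 0.0159), and this call was lost without Input Ctrl replicate 1 (adjusted p = 0.0860) or IP Ctrl replicate 3 (adjusted p = 0.0789). Anxa6, the largest annexin, with a doubled core, differed by -0.21 ± 0.13 (log2, adjusted p = 0.179) and did not pass the test; without Input Ctrl replicate 3 it was called lower (log2 -0.37, adjusted p = 0.00639). Each IP library has an Input library from its own mouse, and blocking on the mouse changed no call.

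**Figure D2:**
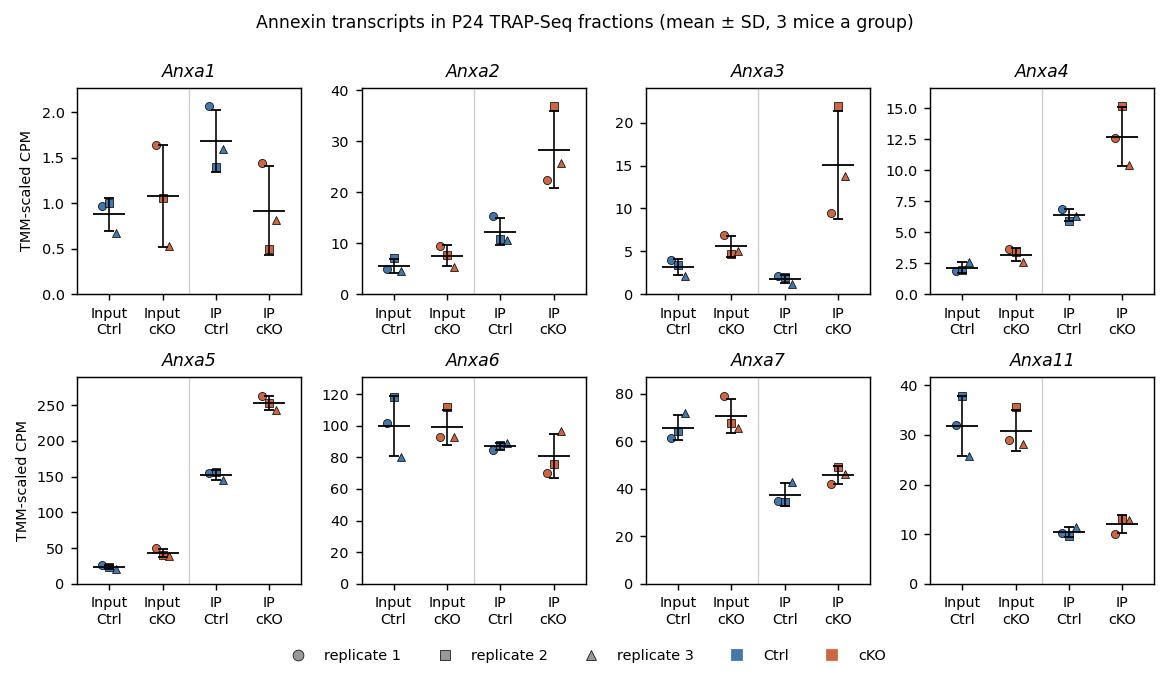
TMM-scaled CPM (linear axis from 0, a scale per gene) of each annexin gene in the P24 TRAP-Seq libraries, Input and IP, Ctrl in blue and cKO in orange, 3 mice a group; marker shapes give the replicate and the black bars the mean ± SD. Anxa2, Anxa3, Anxa4 and Anxa5 are higher in each cKO IP library than in each Ctrl IP library, and Anxa7 and Anxa11 are lower in IP than in Input in both genotypes.

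In cKO mice, ribosome-bound mRNA of 4 annexins rose and none fell past the threshold. Of 23864 genes tested between cKO IP and Ctrl IP, 11.6% were called higher and 8.42% lower, and of the 8 annexins 4 were called higher. The same 4 genes did not overlap between the genotypes, where 19.0% of all genes tested showed no overlap on the higher and 18.7% on the lower side. The median log2 fold change of the 8 genes was 0.52, beside -0.01 over all genes tested.

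Anxa3, an annexin known from neutrophils and other myeloid cells, moved furthest of the 8. Its level was 2.11, 2.00 and 1.17 CPM in the Ctrl IP libraries and 9.50, 21.9 and 13.7 CPM in the cKO IP libraries. The lowest cKO library was thus above the highest Ctrl library by more than the spread within Ctrl. The rise was 8.55-fold (log2 fold change 3.10 ± 0.31 SE, adjusted p = 1.66e-04, edgeR, n = 3 against 3), on 30 to 56 counts per Ctrl and 223 to 490 per cKO library.

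Anxa2 stood at 15.3, 10.8 and 10.7 CPM in Ctrl IP and at 22.4, 36.9 and 25.8 CPM in cKO IP, a 2.32-fold rise (log2 fold change 1.21 ± 0.19, adjusted p = 0.00199, edgeR). Anxa4 stood at 6.88, 5.89 and 6.32 CPM in Ctrl IP and at 12.6, 15.2 and 10.4 CPM in cKO IP, a 2.00-fold rise (log2 fold change 1.00 ± 0.16, adjusted p = 0.00169, edgeR). Anxa5 stood at 156, 157 and 145 CPM in Ctrl IP and at 263, 253 and 243 CPM in cKO IP, a 1.67-fold rise (log2 fold change 0.74 ± 0.09, adjusted p = 5.22e-04, edgeR). On the linear scale the rise of Anxa5 was by far the greatest of the 4, from a mean of 152 to 253 CPM. The calls of these 4 genes held when any 1 library was left out.

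The other 4 annexins did not pass the test in IP. Anxa7 differed by 0.30 ± 0.12 (log2, adjusted p = 0.0929, edgeR), Anxa11 by 0.21 ± 0.14 (adjusted p = 0.338) and Anxa6 by -0.09 ± 0.12 (adjusted p = 0.636). Anxa1 stood at 2.07, 1.40 and 1.60 CPM in Ctrl and at 1.45, 0.492 and 0.814 CPM in cKO IP, with a log2 difference of -0.86 ± 0.35 (adjusted p = 0.105). Without cKO replicate 1, the highest of the cKO libraries, Anxa1 was called lower (log2 -1.31, adjusted p = 0.0250), and without Ctrl replicate 3 Anxa7 was called higher (log2 0.41, adjusted p = 0.0419).

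Markers of other cells were read in the same IP libraries. The 7 microglial markers summed to 88.1 to 99.6 CPM in Ctrl and 81.6 to 90.6 CPM in cKO IP, and none of them was called. Cx3cr1 dominated this sum (mean log2 CPM 6.23, the others at most 2.67). It differed by -0.16 on the log2 scale, and the others lay between 0.05 and 0.39. The 5 endothelial markers summed to 66.8 to 115 CPM in Ctrl and 87.6 to 120 CPM in cKO, with no call. Slco1c1 dominated this sum (mean log2 CPM 6.50, the others at most 0.23). It was higher in Ctrl IP than in Ctrl Input (log2 3.49), as the astrocyte markers were, while the other endothelial markers were lower there. The 4 macrophage markers summed to 3.08 to 5.36 CPM in Ctrl and 5.51 to 7.47 CPM in cKO, without overlap, and the 1 of them tested was not called. The 5 pericyte and smooth muscle markers summed to 24.1 to 34.6 CPM in Ctrl and 35.3 to 45.1 CPM in cKO, and of 4 tested Tagln and Rgs5 were called higher. The part of the last 2 lists in the annexin values was not tested. Of the 7 astrocyte markers 3 were lower in cKO IP (Slc1a3, Gjb6 and Slc1a2) and none was higher. Of the 5 neuronal markers Syp was lower (log2 -0.43, adjusted p = 0.00658, edgeR), and of 4 meningeal fibroblast markers tested Col1a1 was lower (log2 -1.25, adjusted p = 0.0424). The olfactory bulb markers summed to 11.2 and 10.1 CPM in Ctrl IP replicates 1 and 3 and to 2.79 to 3.74 CPM in the other 4 IP libraries. Without these 2 Ctrl libraries, which leaves a single Ctrl library assumed to vary like the cKO ones, 2 members were called, Anxa3 (log2 2.91, adjusted p = 0.00804) and Anxa2 (log2 1.39, adjusted p = 0.0304), while Anxa4 (log2 1.11, adjusted p = 0.0545) and Anxa5 (log2 0.69, adjusted p = 0.0772) kept their sign and missed the threshold.

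The sequences upstream of the genes that rose together in IP were read from the RefSeq promoter table (GRCm38.p6), which lists 6 of the 8 members. Anxa3 and Anxa6 have no entry. For Anxa2, Anxa4 and Anxa5, the listed members that rose, the bases before the annotated gene are printed 5′ to 3′ on the strand of the gene, with motif matches in capitals. Anxa2 lies on chromosome 9 (plus strand, 69453620 to 69491795), Anxa4 on chromosome 6 (minus strand, 86736840 to 86793584) and Anxa5 on chromosome 3 (minus strand, 36448923 to 36475894). Anxa3, with no entry, lies on chromosome 5 (plus strand, 96793339 to 96845966). The 4 genes are not neighbours, each being on a chromosome of its own.
Anxa2, chr9:69453433-69453619, plus strand: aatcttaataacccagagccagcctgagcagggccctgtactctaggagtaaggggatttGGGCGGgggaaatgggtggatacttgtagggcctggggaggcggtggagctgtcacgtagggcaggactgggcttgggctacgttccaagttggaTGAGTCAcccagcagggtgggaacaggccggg
Anxa4, chr6:86793585-86793834, minus strand: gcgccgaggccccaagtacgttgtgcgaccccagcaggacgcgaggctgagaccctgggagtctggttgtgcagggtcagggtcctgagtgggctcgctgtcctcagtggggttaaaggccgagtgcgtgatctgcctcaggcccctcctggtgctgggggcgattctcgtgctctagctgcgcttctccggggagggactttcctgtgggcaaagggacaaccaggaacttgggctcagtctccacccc
Anxa5, chr3:36475895-36476137, minus strand: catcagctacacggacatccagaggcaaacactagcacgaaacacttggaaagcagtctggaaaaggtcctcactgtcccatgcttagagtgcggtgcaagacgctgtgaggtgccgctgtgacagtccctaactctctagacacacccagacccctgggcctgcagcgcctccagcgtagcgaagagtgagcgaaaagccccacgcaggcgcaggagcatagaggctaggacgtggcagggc
Both strands of the 250 bases before each RefSeq start were searched for an AP-1 motif (TGANTCA) and a STAT motif (TTCNNNGAA). They were also searched for the GC box with the letters GGGCGG, for the TATA motif with the letters TATAAA, and for the CCAAT box. Anxa2 held the AP-1 motif 95 bases before its start, and 6.75% of 32851 windows of this length in the table held it. It also held 3 GC boxes (190, 48 and 24 bases before the start), found in 32.7% of windows, and a TATA motif 17 bases before the start, found in 12.4%. The printed stretch ends where the annotated gene begins, and so shows the AP-1 motif and the GC box farthest from the start. None of the 5 motifs occurs in these windows of Anxa4 and Anxa5. Among the members that did not rise, Anxa1 held a TATA motif and Anxa7 and Anxa11 held GC boxes. A match describes letters only.

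**Figure D3:**
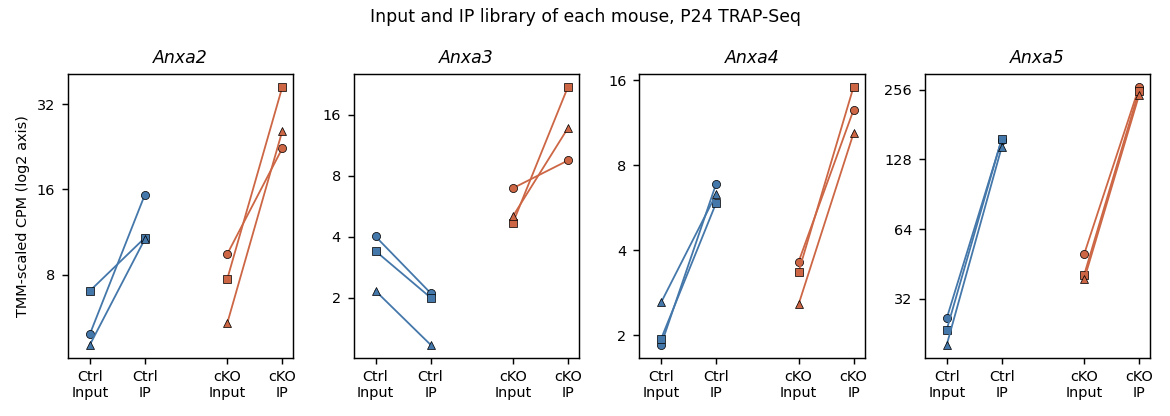
TMM-scaled CPM (log2 axis) of Anxa2, Anxa3, Anxa4 and Anxa5 in the Input and the IP library of each mouse, joined by a line; Ctrl in blue, cKO in orange, 3 mice each, marker shapes for the replicate. The lines of Anxa3 fall in all 3 Ctrl mice and rise in all 3 cKO mice, and those of the other 3 genes rise in all 6 mice.

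The same fractions were then compared within cKO mice. There, 4 annexins were higher in IP than in Input and 2 were lower, where 27.8% of 24011 genes tested were higher and 28.5% lower. Anxa5 was 5.82-fold higher (log2 fold change 2.54 ± 0.16, adjusted p = 1.04e-05, edgeR), Anxa4 3.95-fold (log2 1.98 ± 0.22), Anxa2 3.74-fold (log2 1.90 ± 0.26) and Anxa3 2.70-fold (log2 1.43 ± 0.31, adjusted p = 0.00397). Anxa11 was 2.60-fold lower and Anxa7 1.56-fold lower. All 6 showed no overlap between the fractions, where 32.1% of all genes tested showed none on the higher and 31.8% on the lower side. Anxa1 differed by -0.22 ± 0.50 and Anxa6 by -0.31 ± 0.18 on the log2 scale, and neither passed the test.

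Anxa3 thus stood on opposite sides of the Input in the 2 genotypes. Its IP to Input ratio was between 0.526 and 0.590 in the 3 Ctrl mice and between 1.37 and 4.69 in the 3 cKO mice. The interaction of fraction and genotype, which tests this difference itself, was 2.30 ± 0.46 on the log2 scale and did not pass the threshold (adjusted p = 0.102, edgeR, over 25768 genes, of which 0.0582% were called). It passed in 3 of 16 alternatives: with the DESeq2 Wald test (adjusted p = 5.68e-04), with no filter on low counts (adjusted p = 1.38e-04) and without Input cKO replicate 1 (adjusted p = 0.0221). In the last of these fits 246 genes were called higher over all genes, in place of 10. For the other 7 members the interaction was not called under any setting tried, with the next in size being that of Anxa1 at -1.14 ± 0.60 and Anxa2 at 0.75 ± 0.35. For Anxa5 it was -0.15 ± 0.19. The 7 astrocyte markers had interactions between -1.01 and -0.61, none of them called.

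In the Input libraries, which hold RNA of all cell types of the cortex, none of the 8 annexins was called between cKO and Ctrl mice (edgeR, 23828 genes, 0.109% called), and 3 had an unadjusted p under 0.05, as had 4.03% of all genes tested. Anxa5 came nearest, at 26.5, 23.6 and 20.3 CPM in Ctrl and 50.0, 40.7 and 38.9 CPM in cKO Input, with no overlap (log2 fold change 0.88 ± 0.17, adjusted p = 0.211). It was called by DESeq2 (adjusted p = 0.00360), with no filter on low counts (adjusted p = 0.0319) and without cKO replicate 1 (adjusted p = 0.0420), a library that stood apart over all genes: its chi-square per degree of freedom against the other cKO Input libraries was 75.1 and 78.6, and that between the other 2 was 8.09. Without it 103 genes were called higher, in place of 22. Anxa3 did not overlap either, with 4.00, 3.39 and 2.16 CPM in Ctrl and 6.93, 4.68 and 5.04 CPM in cKO (log2 0.80 ± 0.27, adjusted p = 0.812), and 6.59% of all genes tested showed no overlap on the higher and 5.28% on the lower side. The summed astrocyte markers lay at 814 to 938 CPM in Ctrl and 1116 to 1453 CPM in cKO Input, the summed endothelial markers at 11.4 to 15.3 and 18.5 to 22.2 CPM, and the summed pericyte and smooth muscle markers at 16.6 to 20.1 and 21.3 to 24.4 CPM. Aldoc, the astrocyte marker with the highest level in Input (mean log2 CPM 9.19), was called higher (log2 0.92, adjusted p = 0.0485, edgeR). The other astrocyte markers were not called: Aqp4 differed by 1.27, Aldh1l1 by 0.90, Gja1 by 0.47, Slc1a3 by 0.06, Gjb6 by -0.03 and Slc1a2 by -0.11 (log2). Slco1c1, the endothelial marker with the highest level in Input (mean log2 CPM 3.38), differed by 0.93 (log2) and was not called. The part of these summed markers in the annexin values was not tested. The olfactory bulb markers summed to 42.3 and 25.1 CPM in Ctrl Input replicates 1 and 3 and to 9.47 to 11.4 CPM in the other 4 Input libraries. Without these 2 Ctrl libraries, which leaves a single Ctrl library assumed to vary like the cKO ones, Anxa5 differed by 0.86 and Anxa3 by 0.70 (log2), Anxa2 by 0.10 in place of 0.46, and edgeR called neither an annexin nor any other gene. In whole tissue, a change in the number of cells of a type and a change in RNA per cell cannot be told apart.

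Bulk cortex at P24 gave 1 call among the 8 annexins. Anxa5 stood at 26.2, 21.7, 20.3 and 25.2 CPM in the Ctrl and at 35.6, 43.3, 40.1 and 41.0 CPM in the cKO mice. All 4 cKO libraries were above all 4 Ctrl libraries, as was so for 4.27% of all genes tested. The rise was 1.71-fold (log2 fold change 0.78 ± 0.09, adjusted p = 6.17e-04, edgeR, over 22495 genes), and 1.26% of the genes tested were called higher and 0.462% lower. A two-sided exact permutation test over the mice gave p = 0.0286, the smallest that 4 mice against 4 allow. This value follows from the lack of overlap, and Anxa7 at P24 gave it too. After adjustment over the 16 such tests, 8 genes at 2 ages, it was 0.229. The call held in all 8 fits that left out 1 library and without both Ctrl libraries with olfactory bulb markers (log2 0.93, adjusted p = 0.00218). In these libraries none of the 7 microglial markers and none of the 5 pericyte and smooth muscle markers was called, and of 5 endothelial markers Slco1c1 was called higher.

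Anxa2 and Anxa3 split the cKO mice. Anxa2 stood at 5.28, 4.99, 6.21 and 6.39 CPM in Ctrl mice, at 5.17 CPM in cKO replicate 1 and at 10.2, 11.3 and 11.7 CPM in the other 3 cKO mice. Anxa3 stood at 6.23, 5.87, 6.58 and 6.47 CPM in Ctrl mice, at 5.78 CPM in cKO replicate 1 and at 9.04, 9.57 and 9.48 CPM in the other 3. Both genes were thus at the Ctrl level in 1 cKO library and higher in the rest. Over all libraries neither passed the test (Anxa2 log2 0.74 ± 0.22, adjusted p = 0.140; Anxa3 log2 0.43 ± 0.15, adjusted p = 0.240, edgeR). Without cKO replicate 1 both were called (Anxa2 log2 0.95, adjusted p = 3.02e-04; Anxa3 log2 0.57, adjusted p = 0.00467), which makes 3 called members in place of 1, while the calls over all genes went from 284 to 650 higher and from 104 to 300 lower. Anxa2 was also called by DESeq2 (adjusted p = 0.0299) and with no filter on low counts (adjusted p = 0.0284).

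S100a10 and S100a11 split the same mice, though neither passed the test over all P24 bulk libraries (adjusted p = 0.0711 and 0.0629, edgeR). The other partners are not given by mouse in bulk here. S100a10, which binds the N-terminus of Anxa2, stood at 6.52 CPM in cKO replicate 1 and at 12.6, 11.2 and 12.2 CPM in the other cKO mice, against 5.72 to 7.03 CPM in Ctrl mice. S100a11, a partner of Anxa1, stood at 2.69 CPM in cKO replicate 1 and at 10.2, 8.67 and 6.98 CPM in the other 3, against 2.35 to 3.08 CPM in Ctrl mice. The total count of cKO replicate 1, 14575306, was the highest of the bulk libraries. Over all genes its chi-square per degree of freedom against the other cKO libraries was 11.4 to 14.0, and that among those 3 was at most 4.77. Its 7 astrocyte markers summed to 3577 CPM, where the other cKO libraries lay between 3210 and 3266 CPM and the Ctrl libraries between 3607 and 4218 CPM. Of these 7 markers, over all P24 bulk libraries, Aqp4 (log2 1.25 ± 0.16) and Aldh1l1 (1.18 ± 0.13) were called higher in cKO mice and Slc1a2 (-0.41 ± 0.06) and Slc1a3 (-0.40 ± 0.07) lower. The part of these values in the annexin levels was not tested.

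The remaining members showed smaller differences at P24. Anxa4 was at 2.26 ± 0.312 CPM in Ctrl and 3.13 ± 0.621 CPM in cKO mice (SD, n = 4; log2 0.48 ± 0.19, adjusted p = 0.286, edgeR), and its highest cKO value, 3.96 CPM, was that of replicate 1. Anxa7 showed no overlap, with 46.4 to 52.2 CPM in Ctrl and 53.4 to 56.1 CPM in cKO mice (log2 0.15 ± 0.05, adjusted p = 0.265), where 4.27% of all genes tested showed none on the higher and 3.40% on the lower side. Anxa11 differed by 0.29 ± 0.11 (adjusted p = 0.279) and Anxa1, on 7 to 20 counts per library, by 0.25 ± 0.32 (adjusted p = 0.799). Anxa6 was at 69.1 ± 2.02 CPM in Ctrl and 68.2 ± 1.78 CPM in cKO mice, with a log2 difference of -0.02 ± 0.05. In all, 6 members had an unadjusted p under 0.05, as had 13.1% of all genes tested, and the median log2 difference of the 8 was 0.36, beside 0.00 over all genes.

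**Figure D4:**
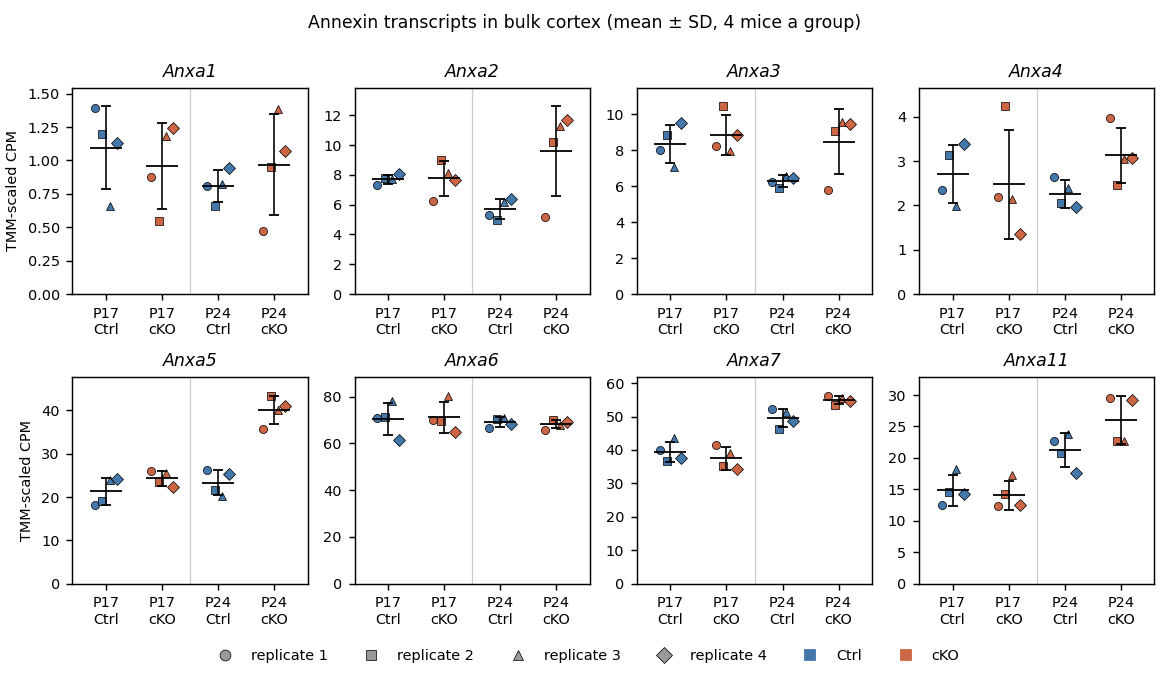
TMM-scaled CPM (linear axis from 0, a scale per gene) of each annexin gene in the bulk cortex libraries at P17 and P24, Ctrl in blue and cKO in orange, 4 mice a group; marker shapes give the replicate and the black bars the mean ± SD. Anxa5 separates the genotypes at P24, and cKO replicate 1 (circle) lies at the Ctrl level for Anxa2 and Anxa3, at 5.17 and 5.78 CPM.

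A week earlier the annexins did not separate the genotypes. At P17 none of the 8 was called by edgeR (21201 genes, 0.0943% called) or by DESeq2, none had an unadjusted p under 0.05 in edgeR, and all 8 overlapped between the groups, where 1.74% of all genes tested showed no overlap on the higher and 1.09% on the lower side. Anxa5 was at 18.2 to 24.1 CPM in Ctrl and at 22.3 to 25.9 CPM in cKO mice (log2 fold change 0.19 ± 0.10, adjusted p = 1.00). Anxa2 was at 7.72 ± 0.305 CPM in Ctrl and 7.77 ± 1.16 CPM in cKO mice (SD, n = 4), and Anxa3 at 8.35 ± 1.06 and 8.85 ± 1.12 CPM. The log2 differences of the 8 genes lay between -0.20 and 0.19. The same-numbered P17 libraries deviated together, and a fit that paired them by number again called none of the 8.

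Whether the genotype difference itself changed with age was tested as the interaction of age and genotype, over 23395 genes of which 0.0470% were called. None of the 8 annexins was called (edgeR) and 3 had an unadjusted p under 0.05, as had 6.32% of all genes tested. Anxa5 differed by 0.58 ± 0.14 more at P24 than at P17 on the log2 scale (adjusted p = 0.276) and was called with no filter on low counts (adjusted p = 0.0345) and without P24 cKO replicate 1 (adjusted p = 0.0460). Anxa2 differed by 0.73 ± 0.28 (adjusted p = 0.657) and was called without P24 cKO replicate 1 (log2 0.94, adjusted p = 0.00855); in that fit 113 genes were called higher over all genes, in place of 8. DESeq2 called none of the 8. The libraries of each age come in a table of their own, and whether they were also prepared or sequenced apart is not given in the sources used here.

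**Figure D5:**
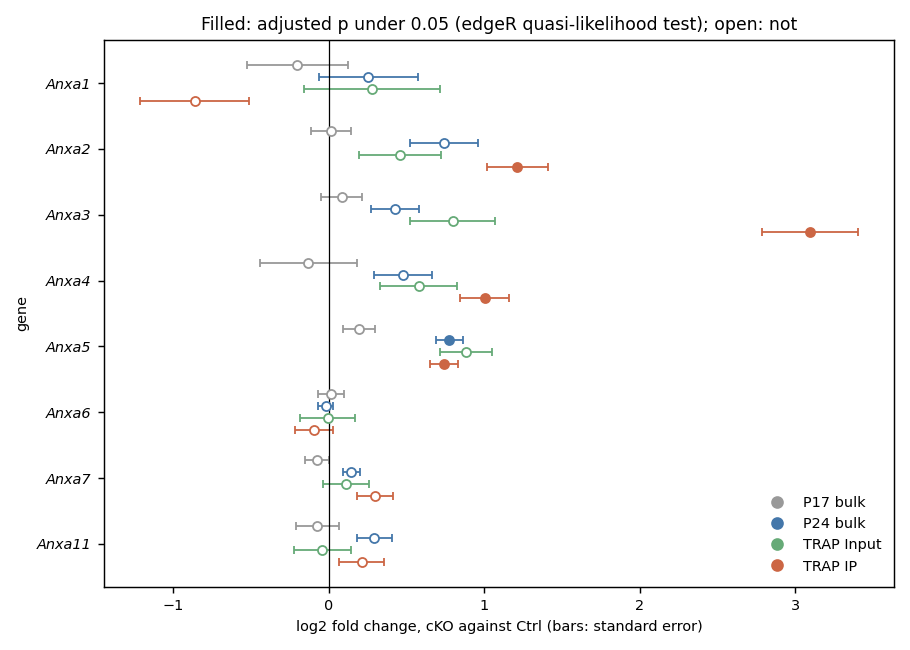
Log2 fold change of cKO against Ctrl (x axis) for each annexin gene (y axis) in P17 bulk, P24 bulk, TRAP Input and TRAP IP libraries, with the standard error as bars; filled points have an adjusted p under 0.05 and open points do not. Filled points are Anxa5 in P24 bulk and Anxa2, Anxa3, Anxa4 and Anxa5 in IP, where Anxa3 reaches 3.10.

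Genes that work with annexins were read from 3 lists. The lists were chosen with earlier results of these data known, so their counts and medians only describe the listed genes. Of 12 binding partners and receptors, 9 were tested in each comparison of cKO with Ctrl, and 6 of the 9 rose in IP, where 11.6% of all genes tested did. S100a4, a calcium-binding protein of motile cells, rose most on the log2 scale, from 7.11, 7.36 and 6.36 CPM in Ctrl to 53.6, 159 and 74.0 CPM in cKO IP (log2 3.79 ± 0.35, adjusted p = 9.26e-05, edgeR). S100a11 rose by 2.71 ± 0.34, S100a6 by 2.52 ± 0.27, Plat, the tissue plasminogen activator, by 2.05 ± 0.23, S100a10 by 1.96 ± 0.17 and Ahnak, a giant scaffold protein bound by Anxa2 and S100a10, by 1.49 ± 0.25 (log2, SE). Sri, Pdcd6 and Dysf, which partner Anxa7, Anxa11 and Anxa2, differed by 0.02, 0.16 and 0.03 and were not called. The median over the 9 was 1.96, beside -0.01 over all genes tested.

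In P24 bulk, S100a4 (log2 4.20 ± 0.64), S100a6 (2.26 ± 0.31) and Plat (0.99 ± 0.14) were called higher, in Input S100a4 (3.69 ± 0.36) and S100a6 (1.83 ± 0.24), and at P17 none of the 9. S100a10, the partner of Anxa2, was at 33.5 ± 3.09 CPM in Ctrl IP and 130 ± 35.3 CPM in cKO IP (SD, n = 3), a rise in the same libraries in which Anxa2 rose 2.32-fold.

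Of 12 membrane repair genes, none was called in P24 bulk, P17 bulk or Input. In IP, 11 were tested, none rose, and Capn2, a calcium-activated protease subunit, fell by 0.91 (SE 0.13, adjusted p = 0.00125) and Pdcd6ip, an adaptor of the ESCRT machinery, by 0.35 (SE 0.10, adjusted p = 0.0354). Over all genes 11.6% were called higher and 8.42% lower in IP. On the lower side alone, 2 of 11 is above that share, but 11 genes are too few to read it as a result. Of 12 genes for phosphatidylserine exposure and recognition, all tested in IP, Gas6, a bridging ligand, rose by 0.62 ± 0.16 (adjusted p = 0.0192) and Mertk, a receptor for it, fell by 1.00 (SE 0.15, adjusted p = 0.00154), which in either direction is a share near that of all genes. In P24 bulk, of 11 tested, Pros1, a second bridging ligand, rose by 0.48 ± 0.10 (adjusted p = 0.0419). No gene of this list was called at P17 or in Input. The medians of these 2 lists lay within 0.12 of 0 in all 4 comparisons.

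The genes whose pattern over the 8 groups was most like that of each annexin were found from the root mean square difference of centred mean log2 CPM, among 17980 genes. For Anxa3 they were Igfbp3 (0.33), Plat (0.38) and Layn (0.39). For Anxa2 they were Tubb6 (0.15), Tmed1 (0.16) and Stat4 (0.16), and for Anxa5 they were Mtmr11 (0.14), Abhd4 (0.15) and Mapkapk3 (0.17). Anxa6, whose group means spanned 0.53 on the log2 scale against 3.57 for Anxa5 and 3.00 for Anxa3, was followed closest by Mrps5 (0.04). For Anxa7 the closest was Gas2l1 (0.07), for Anxa11 Rims3 (0.12), for Anxa4 the transcript 4930554G24Rik (0.10), and for Anxa1, whose own mean lay under the minimum asked of the others, Dok7 (0.13). The 3 tables were scaled separately, so the distances include differences between experiments.

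Anxa8, Anxa9, Anxa10 and Anxa13 had at most 16 counts in a bulk or Input library. Anxa8 stood at 0.212 to 0.509 CPM as group means in bulk and Input and at 1.72 ± 0.194 CPM in Ctrl IP and 1.20 ± 0.214 CPM in cKO IP (SD, n = 3). It was higher in IP than in Input in Ctrl (log2 2.79 ± 0.41, adjusted p = 7.16e-05) and in cKO mice (log2 2.45 ± 0.36, adjusted p = 5.14e-04, edgeR) and was not called between the genotypes in IP (-0.50 ± 0.24, adjusted p = 0.168). Anxa9 was tested in P24 bulk and IP, without a call. Anxa10 and Anxa13 did not pass the filter on low counts in any comparison, with at most 11 counts in a library.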

How the data were processed

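Bulk RNA-Seq and TRAP-Seq libraries of mouse cortex were compared. The values deposited by the authors are whole counts per Ensembl gene, not normalized, in a table per experiment, made after mapping in Galaxy with STAR to mm10; the counting tool, its strand setting and the annotation are not given in the sources used here. A small part of the exons of Anxa2, Anxa3, Anxa4 and Anxa11 (1.61% to 3.07%) overlaps another gene. The age of the bulk tables comes from their names. Symbols, positions and exon lengths come from GENCODE M21 (GRCm38), which held 53237 of the 53342 identifiers.

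edgeR 4.0.16, run in R 4.3.3, gave every comparison: TMM factors, filterByExpr (minimum count 10, total 15, proportion 70%), the two-sided quasi-likelihood test (SE: log2 fold change divided by the root of F) and Benjamini-Hochberg adjustment over all genes tested, at a threshold of 0.05. Each fit held the groups compared. Annexins in bulk also had exact permutation tests on CPM, not run for 3 mice against 3. Alternatives were RLE factors, the Wald test of DESeq2 1.42.0, no filter beyond 1 count, the replicate number as a block, and leaving out each library. Scripts were tested on simulated data.

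Replicate numbers pair the IP and Input of a mouse by design. Same-numbered cKO and Ctrl libraries deviated together at P17 (correlations 0.167 to 0.380 over genes). The main P17 values come from the fit without pairs, and the fit with pairs was an alternative. In IP the same numbers also matched best, but at low correlations (0.0355 to 0.116), and they are not taken as pairs. In P24 bulk and Input another number matched better for some libraries. Between the IP and Input of each cKO mouse the correlations were -0.0481, -0.102 and 0.122. For cKO replicates 1 and 2 another number matched better, so their pairing rests on the sample titles. In Ctrl mice the own number matched best. All replicate pairs differed by more than counting error (chi-square per degree of freedom 2.59 to 78.6 over 36 pairs). The totals leave low genes such as Anxa1 at 5 to 55 counts per library.

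An alternative added after seeing the data left out the 2 Ctrl libraries with olfactory bulb markers in P24 bulk, in IP and in Input. The text names the 8 members, the other annexins, up to 3 called genes per list and comparison with a mean log2 CPM of at least 1 (in IP all 6 called partners, as the list is described whole), markers that moved with a result, and the genes most alike in pattern. The level of the targeted gene is not reported here. Members and lists were chosen with earlier results of these data known.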

Additional observations from a re-analysis of the deposited data

Results flagged for a closer look

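In P24 bulk cortex, Anxa3 stood at 5.78 CPM in cKO replicate 1, far from the other 3 cKO libraries (9.04 to 9.57 CPM): the gap to the nearest of them was 0.861 of the range of the group. Of 32 such groups of 4 libraries looked at, this was the 1 flag, and chance flags about 1 group in 20.

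The IP to Input difference of Anxa3 had opposite signs in the genotypes in every mouse, lower in 3 of 3 Ctrl mice and higher in 3 of 3 cKO mice. The difference between the genotypes, tested as an interaction, was 2.30 on the log2 scale with an adjusted p of 0.102 (edgeR), and the adjusted p lay between 1.38e-04 and 0.275 over the alternatives.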

How the results depend on the processing

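Of 822 values recomputed under alternatives, 776 kept their direction and side of the threshold. Of the 24 that changed sign, 0 belonged to a called result. The cause of the changes below was not tested. In P24 bulk, 2 annexins were called higher by DESeq2 and with no filter on low counts (1 in edgeR), and 1 to 3 when a library was left out. In IP, the replicate block, with numbers not shown to pair mice there, called 1 annexin lower (Anxa1, log2 -0.92, adjusted p = 0.0342) and Anxa7 higher (log2 0.30, adjusted p = 0.0350). Leaving out a library gave 4 to 5 higher and 0 to 1 lower, and leaving out the Ctrl libraries with olfactory bulb markers 2 higher. In Input, 1 was called higher by DESeq2 and with no filter, and 0 to 1 without a library. The age interaction called 1 with no filter and 0 to 2 without a library. The fraction interaction called 1 by DESeq2 and with no filter, and 0 to 1 without a library; its block gave 2.23 for Anxa3 (adjusted p = 0.183). For Ctrl IP against Input, 2 to 4 annexins were lower without a library. The block changed no other annexin call. RLE factors changed none. DESeq2 gave no adjusted p for Anxa1 in P24 bulk and in the fraction interaction.

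Values that changed sign were not called. Without a library, log2 ranges at P17 were -0.067 to 0.11 (Anxa2), -0.0045 to 0.15 (Anxa3), -0.52 to 0.076 (Anxa4), -0.045 to 0.067 (Anxa6) and -0.18 to 0.036 (Anxa11). They were -0.25 to 0.025 for Anxa6 in IP, -0.16 to 0.61 (Anxa1), -0.14 to 0.13 (Anxa6) and -0.17 to 0.10 (Anxa11) in Input, and -0.68 to 0.22 for Anxa1 between cKO IP and Input. For Anxa6 they were -0.093 to 0.034 in the age and -0.25 to 0.026 in the fraction interaction. Anxa6 in Input was 0.0081 with no filter and 0.0036 with the block.

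Counts over all genes, higher and lower, moved by more than 1.5 times in these cases. Leaving out a library gave 170 to 650 and 45 to 300 in P24 bulk, 6 to 11 and 5 to 8 at P17, 1827 to 2849 and 806 to 2100 in IP, 1 to 103 and 2 to 11 in Input, 2 to 113 and 2 to 36 in the age interaction, and 1 to 246 and 1 to 186 in the fraction interaction. P24 bulk gave 213 lower by DESeq2, 217 with no filter, and 79 and 22 without the olfactory bulb libraries (284 and 104 in edgeR). P17 gave 29 and 12 by DESeq2, 39 and 16 with no filter, and 84 and 25 with the block (14 and 6). IP gave 3160 lower with the block, and 312 and 159 without the olfactory bulb libraries (2772 and 2010). Input gave 120 and 7 by DESeq2, 94 and 18 with no filter, 6 and 2 with the block, and 0 and 0 without the olfactory bulb libraries (22 and 4). The age interaction gave 43 and 11, 52 and 10, and 42 and 13 (8 and 3). The fraction interaction gave 99 and 185, 79 and 110, and 4 and 2 (10 and 5), and 5 higher with RLE factors. Depth limits Anxa1 and the other scarce annexins most.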
